A study of Capra hircus with 6 samples.

Results

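The genes described here encode the machinery of synaptic vesicles and of regulated exocytosis in the pineal gland of female goats (Capra hircus). They were chosen by gene symbol alone: all synaptotagmins (SYT), syntaxins (STX), VAMP, SNAP, SV2, CPLX, UNC13, RIMS, STXBP and SYNGR genes, the vesicular transporters SLC17A6 to SLC17A8 and SLC18A, and SYP, SYN1, SYN2, SYN3, BSN, PCLO, SYPL1 and NSF. The rule found 77 of the 28244 genes in the deposited count table. It uses no expression value, but it was set with earlier results of these data known. VAMP2, SNAP23, SV2B and NSF matched no symbol and were not analysed here. RNA sequencing compared 3 pineal libraries of the group labelled prepuberty with 3 of the group labelled puberty, all from untreated females. Puberty was recognised by an inflamed vulva and by mature follicles in the ovaries, per the series description, and no source used here gives the animals' age. Whether each library came from its own animal is not stated in the labels. The p-values below therefore weigh differences against library-to-library spread, part of which may be technical.

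A vesicle fuses when a SNARE protein on its membrane (a VAMP) zips together with SNAREs on the target membrane (a syntaxin and a SNAP protein). Proteins of the UNC13 and RIMS families prime this assembly at the active zone, complexins clamp it, and some synaptotagmins trigger fusion when calcium enters. Pinealocytes, the melatonin-making cells of the gland, are related to retinal photoreceptors. Like photoreceptors, they contain synaptic ribbons, plate-like structures that hold vesicles, and in the rat they also keep glutamate in small synaptic-like vesicles. Melatonin itself is not stored in vesicles.

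The libraries held 18864451 to 20971065 counts. The pinealocyte markers TPH1, ASMT and CRX averaged 1131, 1025 and 969 FPKM (the authors' scale, which divides reads by listed gene length and library size). High levels of these genes matched the tissue label. They come from a list of 18 markers, of which AANAT matched no symbol. Puberty replicate 2 stood apart: 7 choroid plexus markers summed to 10838 CPM in it and to 667 to 1055 CPM in the other 5 libraries (CPM, counts scaled to TMM-adjusted library totals). Astrocyte and interstitial glia markers summed to 3549 to 5078 CPM in prepuberty and to 5351 to 5572 CPM in puberty, without overlap. Of the 11 tested, 2 were called higher and 0 lower at an adjusted p under 0.05 (edgeR). Among all tested genes 5.85% were called higher and 5.64% lower. The part of these glia in the results was not tested. Markers of neurons summed to 2751 to 3006 CPM in prepuberty and to 2922 to 3012 CPM in puberty. Of the 15 neuron markers tested, 2 were called higher and 2 lower, so the sum does not stand for each marker. The 17 measured pinealocyte markers summed to 9473 to 10412 CPM in prepuberty and to 9997 to 11706 CPM in puberty, with 1 called higher and 1 lower. Oligodendrocyte markers summed to 291 to 416 CPM in prepuberty and to 273 to 284 CPM in puberty, without overlap. Of the 9 tested, 0 were called, and their part in the results was not tested. A list of 5 markers of sympathetic fibres, TH, DBH, NPY and SLC6A2 among them, together reached at most 4.86 CPM.

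The vesicle genes ranged over several orders of magnitude in level. Of the 77, 11 averaged at least 100 FPKM and 12 less than 1 FPKM, with a median of 15.8 FPKM. Complexin CPLX3 was the highest member and ranked 23 among all 28244 genes by mean FPKM, followed by the vesicle membrane protein synaptophysin (SYP) at rank 36 and the vesicular glutamate transporter SLC17A7 at rank 109. FPKM divides by listed lengths, 50 of which are whole multiples of 3 among the 77 members and may hold coding sequence only, so levels of different genes do not share 1 length basis.

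In most families 1 paralog carried most of the FPKM. CPLX3 made up 94.65% ± 0.76 of the summed complexin FPKM in prepuberty and 93.7% ± 0.46 in puberty (SD, n = 3 per group), and CPLX4 4.94% ± 0.70 and 6.17% ± 0.49. CPLX3 and CPLX4 are the complexins of retinal ribbon synapses, while CPLX1 and CPLX2, those of most brain synapses, together gave under 1% at either stage. The listed lengths of CPLX3 and CPLX4 are nearly alike (477 and 483 nt), and their raw counts in prepuberty replicate 1 were 15488 and 711. Among 15 syntaxins STX3, the syntaxin of retinal ribbon synapses, gave 33.9% ± 2.3 in prepuberty and 33.9% ± 2.6 in puberty. STX1A, a syntaxin of the plasma membrane at conventional synapses, was at 0.194% ± 0.030 and 0.133% ± 0.042. Its share does not stand for all syntaxins of conventional synapses, and not every syntaxin's share is given here.

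Several other families had a leading gene. SNAP25, the plasma membrane partner of the syntaxins, gave 91.9% ± 0.31 and 91.0% ± 0.68 of the FPKM of the 3 measured SNAP genes of the SNARE type. SLC17A7 (VGLUT1) gave 80.6% ± 1.6 and 84.0% ± 2.2 of that of the vesicular glutamate transporters, SLC17A6 (VGLUT2) 19.4% ± 1.6 and 16.0% ± 2.2, and SLC17A8 at most 8 counts in a library. SV2A, the vesicle glycoprotein, gave 97.8% ± 0.49 and 98.8% ± 0.26 of the 2 measured SV2 genes, and SYN1 85.5% ± 1.5 and 83.2% ± 2.0 of the synapsins. Synaptotagmins were more evenly spread. SYT5 gave 28.6% ± 1.6 and 32.0% ± 4.7, SYT1 24.4% ± 1.3 and 21.6% ± 3.9, and SYT11 18.5% ± 0.75 and 15.6% ± 0.46.

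**Figure D1:**
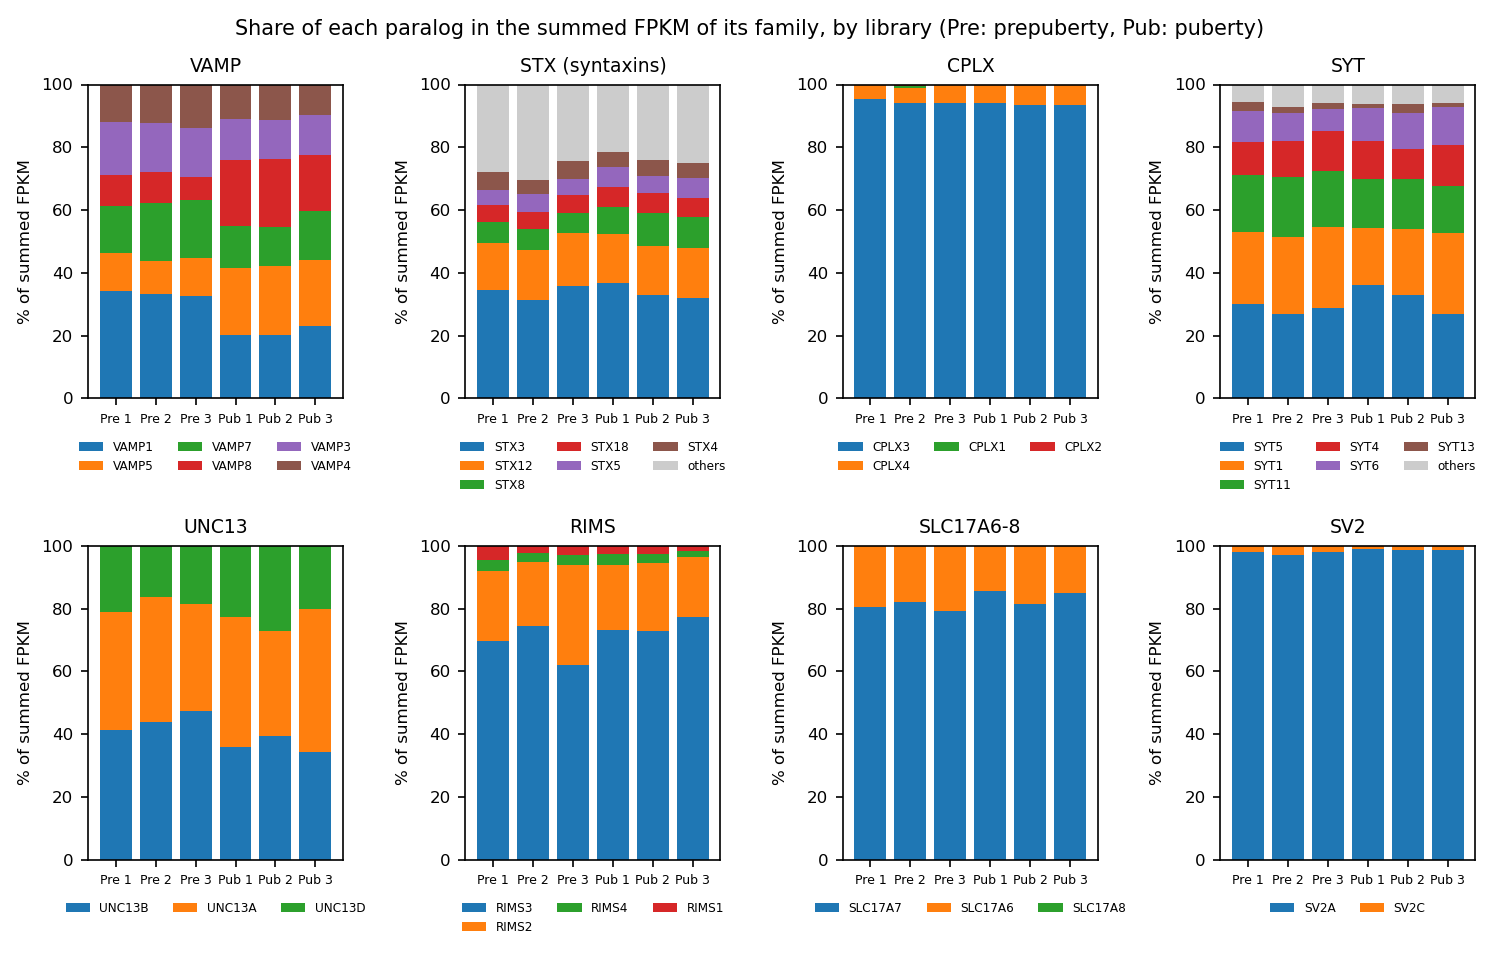
Share of each paralog in the summed FPKM of its family (percent, vertical axis) in each of the 6 libraries (Pre, prepuberty; Pub, puberty), for 8 families, with only rows that carry a symbol. CPLX3, SV2A and SLC17A7 fill most of their bars in every library, and in the VAMP panel the shares of VAMP5 and VAMP8 are larger in the 3 puberty libraries.

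The question was which vesicle genes differ between the stages. Of the 77 members, 69 passed the filter on low counts and were tested. At an adjusted p under 0.05, 4 rose (VAMP8, VAMP5, STX8 and CPLX4) and 5 fell (among them STXBP5, PCLO, UNC13B and STXBP4). These 9 are 13.0% of the members tested, 5.797% higher and 7.25% lower. Among all 16588 tested genes 11.5% were called, 5.85% higher and 5.64% lower, so the members were called about as often as genes in general. The groups did not overlap in 9 members that were higher and 16 that were lower in puberty (13.0% and 23.2%). Of all tested genes 34.8% did not overlap, 17.2% higher and 17.6% lower. The median log2 fold change was -0.08 over the members and 0.01 over all tested genes. Differences were small: 67 of the 69 were under 2-fold, the exceptions being VAMP5 and VAMP8. In bulk tissue, fewer cells of a type and less RNA per cell cannot be told apart.

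Every call was lost in at least 1 fit that left out a single library. Such fits also have fewer libraries, and the cause of lost calls was not tested. Without prepuberty replicate 1, 0 members and 0 of all tested genes were called by edgeR, with 15 members at an unadjusted p under 0.05, and the 9 called members had adjusted p-values of 0.061 to 0.130. Without puberty replicate 2, the library rich in choroid plexus transcripts, VAMP5, VAMP8, STXBP5 and UNC13B were called. All 9 kept their direction with each library left out.

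**Figure D2:**
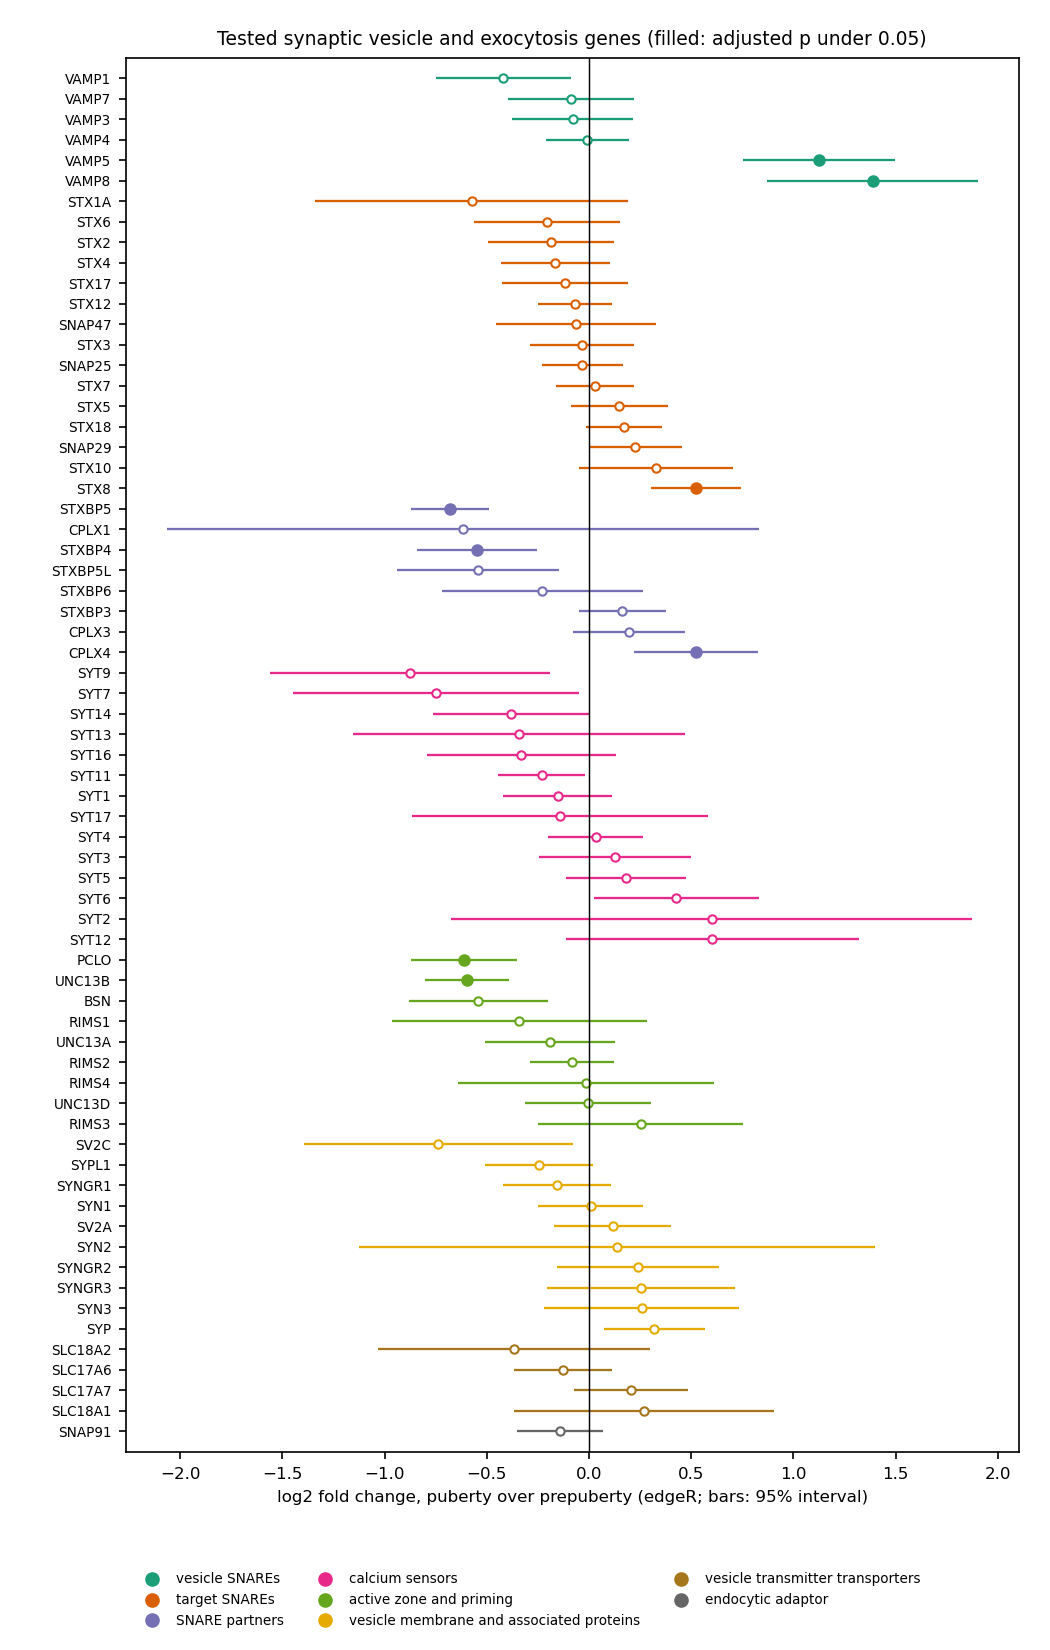
Log2 fold change of puberty over prepuberty (horizontal axis) with its 95% interval for 67 of the 69 tested members, grouped by role, in order of fold change within a role. Filled points mark 8 members called at an adjusted p under 0.05. VAMP5 and VAMP8 lie farthest to the right, and most intervals cross or lie close to 0.

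Role classes hold few genes and were counted, not tested as sets. Vesicle SNAREs were represented by 6 VAMP genes, of which VAMP8 and VAMP5 rose and the other 4 were not called. The called share was 33.3%, against 11.5% of all tested genes. VAMP8, a SNARE of endosomes and of secretory granules in blood and epithelial cells, was at 3.60, 3.78 and 2.49 CPM in prepuberty and at 9.18, 9.05 and 7.64 CPM in puberty. All 3 puberty libraries lay above all prepuberty libraries, and the rise was 2.62-fold (log2 fold change 1.39, SE 0.23, adjusted p = 0.014). VAMP5, a SNARE first described in muscle, was at 5.14, 4.66 and 4.78 CPM in prepuberty and at 10.8, 10.7 and 10.4 CPM in puberty, a rise of 2.18-fold (log2 fold change 1.13, SE 0.17, adjusted p = 0.014). Libraries of 1 stage differed little, and the stages were far apart. Without prepuberty replicate 1 both had an adjusted p of 0.061, with log2 fold changes of 1.47 and 1.18. Both genes have short listed lengths (354 nt for VAMP5 and 306 nt for VAMP8) and low levels, with 48 to 220 raw counts per library.

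VAMP5 and VAMP8 are neighbours. The authors' table places VAMP5 on chromosome 11 from 48936930 to 48937804 and VAMP8 from 48947745 to 48949308, both on the minus strand and 9940 nt apart, and names no genome build. Among the other 6 tested genes within 100 kb of the pair, RNF181 (462 nt) rose, with a log2 fold change of 0.33 (SE 0.08, adjusted p = 0.041). It was not called with length offsets (log2 fold change 0.12, adjusted p = 0.43) or with any 1 library left out (adjusted p = 0.052 to 0.120). USP39, C2orf68, TMEM150A, GGCX and MAT2A had log2 fold changes of -0.28 to 0.09 and were not called. This neighbourhood was examined after the values of the pair had been seen.

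**Figure D3:**
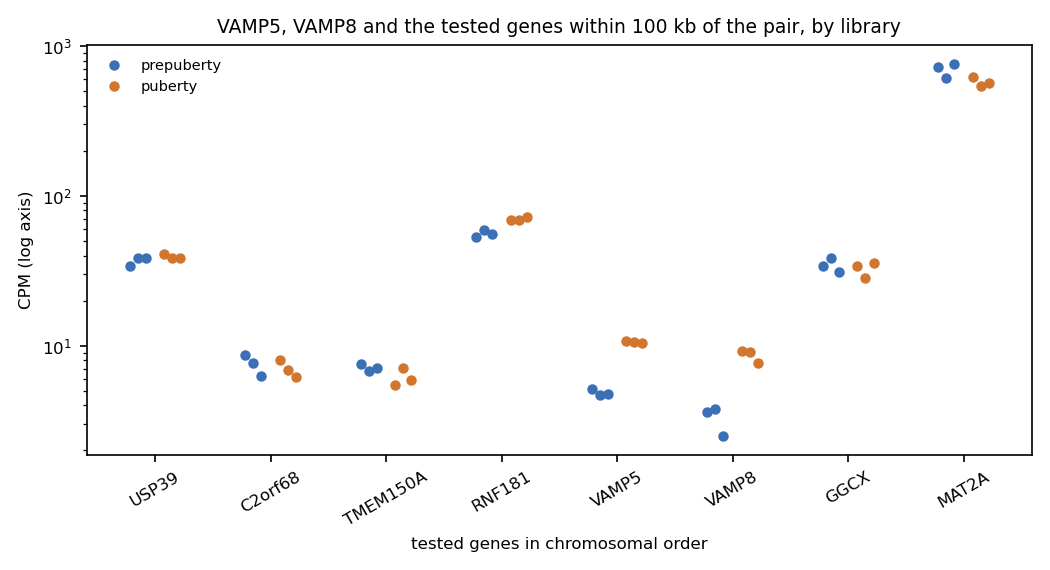
CPM (log axis) in each library for VAMP5, VAMP8 and the 6 other tested genes within 100 kb, in chromosomal order. VAMP5 and VAMP8 show a clear gap between the prepuberty and the puberty libraries, RNF181 a small one, and in the other 5 genes the groups overlap.

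Markers of immune and vessel cells were set beside these values. All 13 microglia and macrophage markers had a positive log2 fold change and 1 was called higher. They summed to 147 to 203 CPM in prepuberty and to 184, 310.4 and 335 CPM in the 3 puberty libraries. The 10 endothelial and pericyte markers summed to 324 to 503 CPM in prepuberty and to 348 to 382 CPM in puberty. The part of these cells in the VAMP5 and VAMP8 values was not tested.

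VAMP1, a neuronal vesicle SNARE, was at 14.3, 14.6 and 12.5 CPM in prepuberty and at 10.02, 9.64 and 11.4 CPM in puberty. The groups did not overlap, but the difference did not pass (log2 fold change -0.42, SE 0.15, adjusted p = 0.096). With offsets for gene length it was called lower (log2 fold change -0.66, adjusted p = 0.042). VAMP3, VAMP4 and VAMP7, which act in endosomal and lysosomal traffic, had log2 fold changes of -0.09 to -0.01. Among the 6 measured VAMP genes the share of VAMP1 was 33.3% ± 0.89 in prepuberty and 21.1% ± 1.8 in puberty, and that of VAMP8 9.05% ± 1.4 and 20.2% ± 2.1. VAMP5 went from 11.7% to 21.5%. Shares have a fixed total, and those of VAMP3 (16.0% to 12.8%), VAMP4 (12.7% to 10.7%) and VAMP7 (17.2% to 13.7%) were lower in puberty too.

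**Figure D4:**
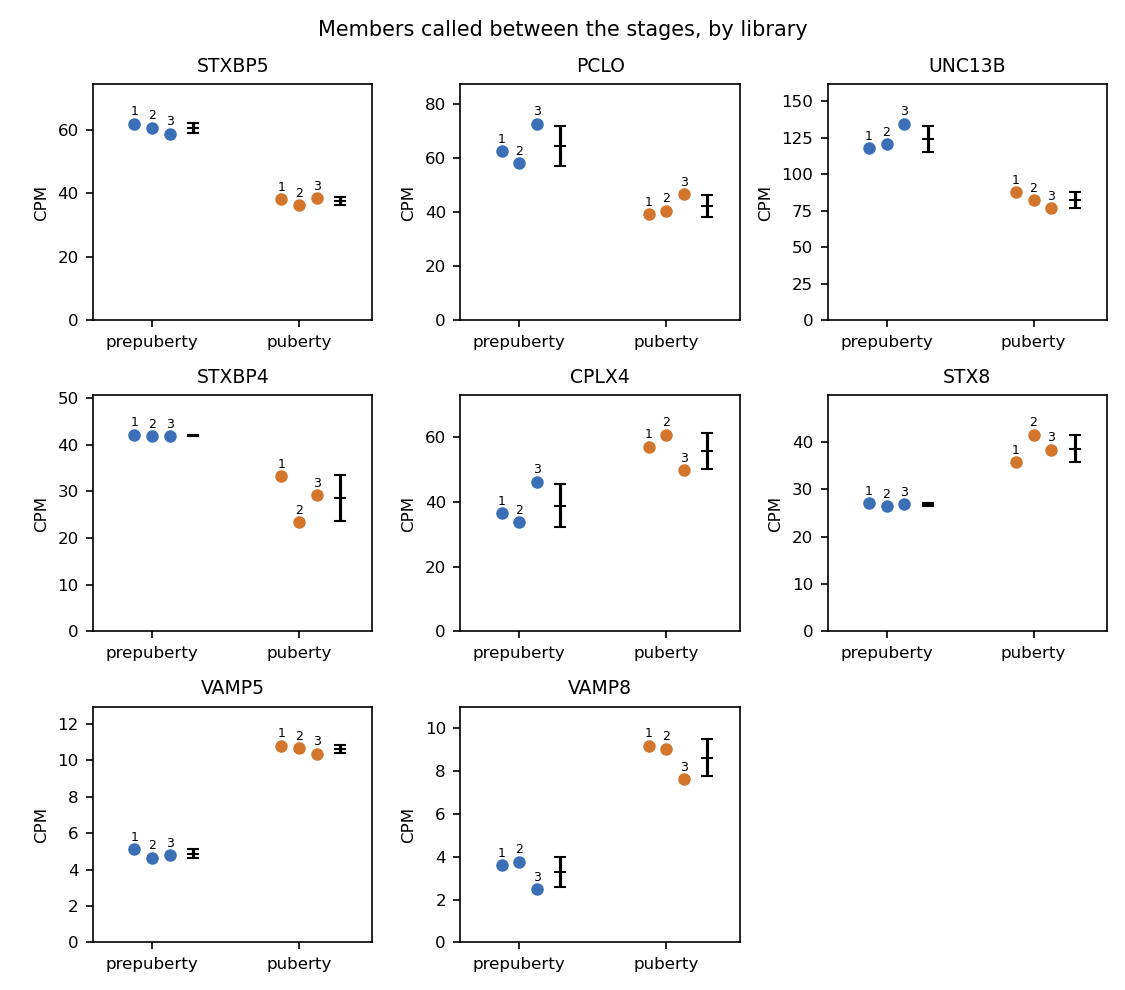
CPM of 8 of the 9 called members in each library, numbered by replicate, with the mean and SD of each group (n = 3) to the right of its points. The 4 panels that open the plot are members that fell, and the 4 that follow are those that rose. In every panel the groups do not overlap.

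Target SNAREs comprised 18 genes, of which 16 were tested and 1, STX8, rose. STX8, a syntaxin of late endosomes, was at 27.1, 26.4 and 26.9 CPM in prepuberty and at 35.8, 41.5 and 38.3 CPM in puberty. The rise was 1.44-fold, with a log2 fold change of 0.52, an SE of 0.10 and an adjusted p of 0.016. The adjusted p was 0.066 and 0.052 with prepuberty replicates 1 and 3 left out in turn, and 0.053 with puberty replicate 2 left out. With length offsets STX8 was not called (log2 fold change 0.38, adjusted p = 0.055).

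The most abundant target SNAREs were not called. STX3, the ribbon syntaxin, was at 189.6 ± 15 FPKM in prepuberty and 185 ± 22 FPKM in puberty for a log2 fold change of -0.04 (95% interval -0.29 to 0.22, adjusted p = 0.87). SNAP25 was at 295 ± 15 and 288 ± 4.8 FPKM (log2 fold change -0.03, -0.23 to 0.16, adjusted p = 0.83). STX1A had a log2 fold change of -0.57 with an interval of -1.34 to 0.19, and STX11 and STX19 had at most 10 counts in a library and were not tested.

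SNARE partners comprised 10 genes, of which 9 were tested, 1 rose and 2 fell (33.3% called, against 11.5% of all tested genes). STXBP5, tomosyn, which binds syntaxin and SNAP25 and holds back SNARE assembly, was at 61.9, 60.7 and 58.8 CPM in prepuberty and at 38.2, 36.3 and 38.6 CPM in puberty. The spread within each stage was small beside the gap between them. It fell 1.60-fold (log2 fold change -0.68, SE 0.08, adjusted p = 0.013, or 0.061 without prepuberty replicate 1). Its paralog STXBP5L was at 12.65, 14.5 and 10.1 CPM in prepuberty and at 8.89, 7.82 and 8.83 CPM in puberty. The groups did not overlap, but it was not called (log2 fold change -0.54, SE 0.18, adjusted p = 0.076).

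STXBP4, a partner of syntaxin 4 known from insulin-regulated traffic, was at 42.1, 41.8 and 41.8 CPM in prepuberty and at 33.3, 23.4 and 29.2 CPM in puberty. Puberty replicate 2 was the lowest. STXBP4 fell 1.46-fold (log2 fold change -0.55, SE 0.13, adjusted p = 0.032), and was called with 1 library left out only when that library was puberty replicate 1. With the other libraries left out in turn, its adjusted p was 0.104, 0.070 and 0.084 (prepuberty replicates 1 to 3) and 0.069 and 0.064 (puberty replicates 2 and 3).

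CPLX4 was at 36.6, 33.9 and 46.3 CPM in prepuberty and at 57.2, 60.8 and 49.9 CPM in puberty. Prepuberty replicate 3 and puberty replicate 3 came close to each other. The 1.44-fold rise of CPLX4 passed (log2 fold change 0.52, SE 0.13, adjusted p = 0.040), but not with length offsets (log2 fold change 0.31, adjusted p = 0.163). Leaving out prepuberty replicates 1 and 2 in turn gave an adjusted p of 0.130 and 0.091, and leaving out puberty replicates 1 and 2 gave 0.093 and 0.116. CPLX3, the leading complexin, was at 796, 659 and 755 CPM in prepuberty and at 946, 851 and 733 CPM in puberty, with overlapping groups and a log2 fold change of 0.20 (95% interval -0.08 to 0.47, adjusted p = 0.32). The ratio of CPLX3 to CPLX4 in FPKM was 19.4 ± 2.8 in prepuberty and 15.3 ± 1.3 in puberty.

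Synaptotagmins, put in the calcium sensor role by symbol whether or not each binds calcium, numbered 16. Of these 14 were tested and 0 called by edgeR, with 5 at an unadjusted p under 0.05. DESeq2 called 0 of them too. SYT5 and SYT1, fast calcium sensors and the leading synaptotagmins, were at 120.3 ± 12 and 102 ± 2.2 FPKM in prepuberty and at 137 ± 22 and 92.1 ± 15 FPKM in puberty. The widest differences were in members at low levels. SYT9 was at 2.26, 2.95 and 2.18 CPM in prepuberty and at 1.18, 1.55 and 1.29 CPM in puberty (log2 fold change -0.88, SE 0.30, adjusted p = 0.094). SYT7, a sensor with high calcium affinity, was at 4.27, 3.68 and 2.34 CPM and at 2.26, 1.71 and 2.13 CPM (log2 fold change -0.75, SE 0.31, adjusted p = 0.15). For both genes the groups did not overlap, and the difference did not pass. SYT12 had a log2 fold change of 0.60 (SE 0.30, adjusted p = 0.24) with overlapping groups. SYT6, a relatively abundant synaptotagmin here, was at 36.0 ± 9.1 and 48.5 ± 3.5 FPKM (log2 fold change 0.43, 95% interval 0.02 to 0.83, adjusted p = 0.15).

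Active zone and priming genes numbered 9, all tested, of which 2 fell and 0 rose (22.2% called, against 11.5% of all tested genes). Their log2 fold change was negative in 8 of 9, where 8192 of all 16588 tested genes were negative, and in 5 of 9 with length offsets. Their median listed length was 5248 nt. UNC13B (Munc13-2), which primes vesicles by opening syntaxin, was at 118, 121 and 135 CPM in prepuberty and at 87.6, 82.4 and 76.7 CPM in puberty. All puberty libraries were below all prepuberty libraries, and it fell 1.51-fold (log2 fold change -0.60, SE 0.09, adjusted p = 0.014, or 0.061 without prepuberty replicate 1). Its paralog UNC13A (Munc13-1) was at 112, 114 and 100.2 CPM and at 105, 73.9 and 106 CPM and was not called (log2 fold change -0.19, SE 0.14, adjusted p = 0.41). UNC13B and UNC13A were at similar FPKM levels, and the share of UNC13B in the 3 measured UNC13 genes was 44.2% ± 3.1 in prepuberty and 36.5% ± 2.6 in puberty. The FPKM ratio of UNC13A to UNC13B was 0.91, 0.90 and 0.71 in prepuberty and 1.15, 0.86 and 1.33 in puberty, with overlapping groups.

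PCLO and BSN encode piccolo and bassoon, giant scaffolds of the active zone that also sit at ribbons. PCLO was at 62.5, 58.0 and 72.5 CPM in prepuberty and at 39.2, 40.5 and 46.7 CPM in puberty. It fell 1.53-fold without overlap of the groups (log2 fold change -0.61, SE 0.11, adjusted p = 0.016). The call was lost in 4 of the 6 fits with 1 library left out: the adjusted p was 0.066 and 0.055 leaving out prepuberty replicates 1 and 3, and 0.051 and 0.055 leaving out puberty replicates 1 and 2. BSN was at 75.4, 86.6 and 55.3 CPM in prepuberty and at 50.9, 48.5 and 50.01 CPM in puberty, and just missed the threshold (log2 fold change -0.54, SE 0.15, adjusted p = 0.051). Prepuberty replicate 3 lay near the puberty libraries, and without it BSN was called. DESeq2 also called BSN (adjusted p = 0.012). Both have the longest listed lengths of the members, 20543 and 11870 nt, and with length offsets the log2 fold changes were -0.24 for PCLO (adjusted p = 0.18) and -0.29 for BSN (adjusted p = 0.28). Among the RIM scaffolds, RIMS3 was the highest at 21.4 ± 6.8 FPKM in prepuberty and 25.5 ± 2.2 FPKM in puberty. The 4 RIMS genes had log2 fold changes of -0.34 to 0.25 and were not called.

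Vesicle membrane and associated proteins comprised 11 genes, of which 10 were tested and 0 called by edgeR, with 2 at an unadjusted p under 0.05 and 1 (SYP) called by DESeq2. SYP was at 3086, 2473 and 2678 CPM in prepuberty and at 3407, 3370.3 and 3502 CPM in puberty. The puberty libraries were all higher and close together, with a log2 fold change of 0.32 (SE 0.11, adjusted p = 0.092, or 0.0245 by DESeq2). SV2C, the minor SV2 form, had a log2 fold change of -0.74 (SE 0.29, adjusted p = 0.13), and SV2A one of 0.12 with an interval of -0.17 to 0.40. SYN1, a synapsin that tethers vesicles to the cytoskeleton, was at 30.02 ± 3.7 and 30.2 ± 2.6 FPKM. SYN1 overlaps TIMP1 and SYN2 overlaps TIMP4, which run on the opposite strand. No source says whether counting used strand, so the counts of both are uncertain. SYNGR1, the leading synaptogyrin, was at 115 ± 17 and 103 ± 7.0 FPKM.

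Transmitter transporters of vesicles numbered 6, of which 4 were tested and 0 called by edgeR or DESeq2, with 0 at an unadjusted p under 0.05. SLC17A7 was at 2456, 2695 and 2252 CPM in prepuberty and at 2757, 2536 and 3242 CPM in puberty, with overlapping groups (log2 fold change 0.21, 95% interval -0.07 to 0.48, adjusted p = 0.31). SLC17A6 was at 649.8, 642 and 656 CPM and at 511, 634 and 637 CPM. All puberty libraries were lower, 2 of them narrowly, and the difference did not pass (log2 fold change -0.13, interval -0.37 to 0.11, adjusted p = 0.46). In FPKM the monoamine transporters SLC18A1 and SLC18A2 were at 0.601 ± 0.14 and 1.29 ± 0.059 in prepuberty, far below SLC17A7 at 687 ± 62 and SLC17A6 at 164 ± 1.8. The acetylcholine transporter SLC18A3 had 1 count in 6 libraries. SNAP91, a clathrin adaptor that shares only its name with the SNARE SNAP25, was at 125 ± 11 and 114 ± 3.6 FPKM (log2 fold change -0.14, adjusted p = 0.35).

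A list of 24 genes known from ribbon synapses had 22 genes in the table, of which 13 are not members. The ribbon protein gene CTBP2 matched no symbol and was not analysed here. Of the 22 tested, 2 rose (CPLX4 and UNC119) and 4 fell (CACNA1D, PCLO, UNC13B and CACNB2), against the 5.85% and 5.64% of all genes given above. The median log2 fold change of the list was -0.14. With length offsets 0 rose and 2 fell (CACNA1D and UNC13B), where 2.82% and 2.8% of all tested genes were called, and the list median was -0.05. CACNA1F, the calcium channel subunit of retinal ribbon synapses, was at 38.3 ± 2.6 FPKM in prepuberty and 36.9 ± 2.6 FPKM in puberty, with a log2 fold change of -0.05 (95% interval -0.26 to 0.15). CACNA1D, another L-type channel subunit, was at 86.8, 72.8 and 89.4 CPM in prepuberty and at 46.7, 42.7 and 51.5 CPM in puberty. It fell 1.77-fold with no overlap (log2 fold change -0.82, SE 0.11, adjusted p = 0.014, or 0.061 without prepuberty replicate 1). UNC119, an abundant protein of photoreceptors that binds the ribbon, rose 1.29-fold (adjusted p = 0.038) and CACNB2 fell 1.33-fold (adjusted p = 0.043), and neither was called with length offsets (adjusted p = 0.157 and 0.082). UNC119 was not called with any 1 library left out (adjusted p = 0.062 to 0.108), and CACNB2 only without prepuberty replicate 2.

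A list of 98 other genes of the vesicle cycle (docking, priming, endocytosis, exocyst and calcium channels) had 88 genes in the table and 86 tested. Of these 5 rose and 8 fell (5.81% and 9.30% of those tested), where 5.85% and 5.64% of all tested genes did. RPH3AL (Noc2), an effector of RAB3 and RAB27 in hormone secretion, was at 17.1, 14.2 and 16.9 CPM in prepuberty and at 24.7, 28.6 and 27.5 CPM in puberty. The 1.67-fold rise had a log2 fold change of 0.74 (SE 0.12, adjusted p = 0.014, or 0.061 without prepuberty replicate 1). The other risers were LIN7B (1.61-fold), a scaffold of the presynaptic membrane, the clathrin adaptor subunit AP2S1 (1.35-fold), SNAPIN (1.33-fold), which binds SNAP25, and the endophilin SH3GL2 (1.30-fold). Of the fallers, CACNA1D was described above, and CACNA1C, an L-type channel subunit, fell 1.63-fold (log2 fold change -0.71, SE 0.12, adjusted p = 0.014, or 0.066 without prepuberty replicate 1). PPFIA2 (liprin-alpha-2) fell 1.43-fold, the endocytic scaffolds ITSN1 and ITSN2 1.42-fold and 1.40-fold, RAB3GAP2 1.27-fold, PICALM 1.26-fold and LIN7C 1.23-fold. With length offsets RPH3AL, AP2S1 and SH3GL2 were still higher and CACNA1D, CACNA1C and LIN7C still lower. Of all tested genes, 2.82% were called higher and 2.8% lower with these offsets. With single libraries left out, 0 to 5 genes of this list were higher and 0 to 5 lower, where only RPH3AL, CACNA1D and CACNA1C were called in 5 of the 6 cases.

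Listed gene length moved with these results. Log2 fold change and length had a Spearman's rho of -0.28 across all tested genes, given as a description since genes are not independent replicates. Of 435 tested genes with a listed length of 300 to under 400 nt, to which VAMP1, VAMP5 and VAMP8 belong, 22.8% rose, with a median log2 fold change of 0.35. VAMP8 and VAMP5 lay above that median at 1.39 and 1.13, and VAMP1 lay below it. Offsets that removed the length trend in each library left 2 members higher, VAMP8 (log2 fold change 1.13, SE 0.22, adjusted p = 0.031) and VAMP5 (0.88, SE 0.17, adjusted p = 0.028). They left 5 lower, among them STXBP5 (-0.61, adjusted p = 0.026), UNC13B (-0.49, adjusted p = 0.028), STXBP4 (-0.52, adjusted p = 0.049) and VAMP1 (-0.66, adjusted p = 0.042). Of all tested genes 5.62% were called with these offsets, 2.82% higher and 2.8% lower.

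**Figure D5:**
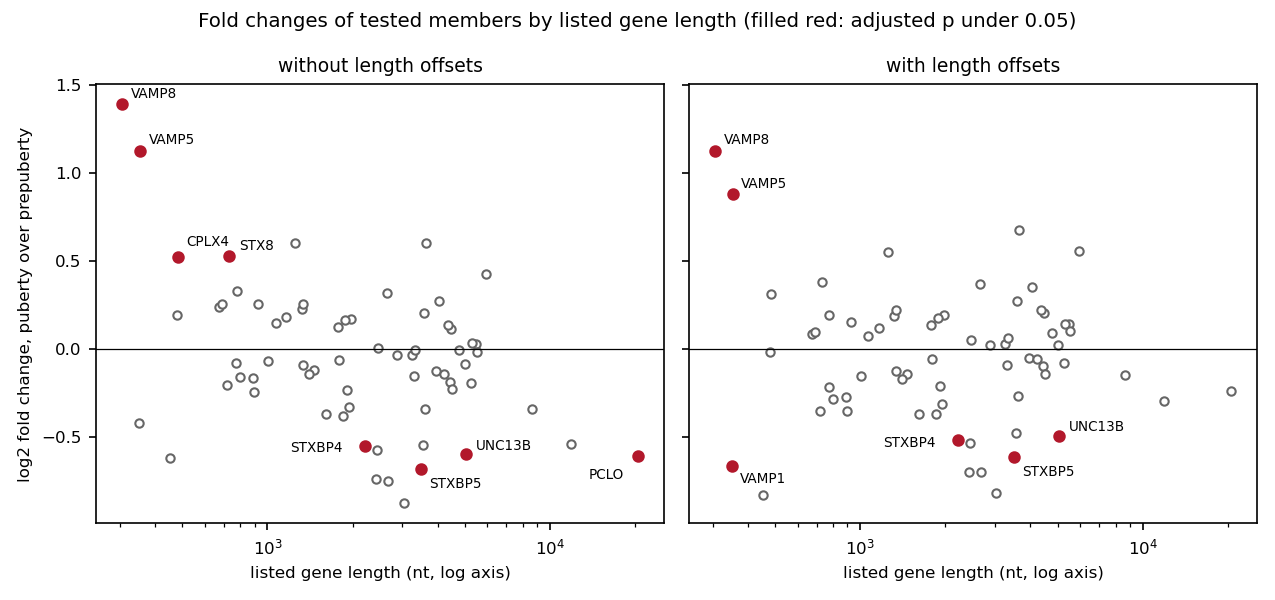
Log2 fold change of puberty over prepuberty against listed gene length (log axis) for 67 of the 69 tested members, without and with offsets for length. Filled red points are members called at an adjusted p under 0.05. CPLX4, STX8 and PCLO lose their call in the second panel and VAMP1 gains one.

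The FPKM ratio of the glutamate transporters SLC17A7 and SLC17A6 was also followed by library. It was 4.16, 4.62 and 3.78 in prepuberty and 5.94, 4.40 and 5.60 in puberty, where puberty replicate 2 fell inside the prepuberty range.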

How the data were processed

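Raw read counts per gene were deposited by the authors. The FPKM values, also deposited by the authors, equal counts divided by listed length and 1 constant per library. The submitters' processing notes name, without roles, featureCounts 1.5.0-p3, DESeq2 1.20.0, fastp, CASAVA 1.8 and HISAT2 2.0.5. They list human builds although the identifiers are goat. Genes without a symbol held 21.7% of counts and stayed in totals and tests. Counts were filtered (filterByExpr, minimum count 10), TMM-scaled and tested over all 16588 remaining genes with edgeR 4.0.16 in R 4.3.3 (robust quasi-likelihood F test, no covariate, Benjamini-Hochberg adjustment). The procedure was tested on simulated data. FPKM served for levels only. Alternatives were RLE scaling, no filter, DESeq2 1.42.0, limma-voom (limma 3.58.1), a replicate block, length offsets and leaving out each library. For the offsets, each library's log2 CPM minus the gene's mean over the libraries was fitted on log2 length (loess, span 0.5). Replicate pairs differed by at least 16.5 times the chi-square of sampling noise. Members and lists were chosen with earlier results of these data known. Genes were named if called, highest in FPKM in their role, among the 3 largest changes in either direction at 1 CPM or more, or called by an alternative. Other members named are paralogs of these, are given by level or were chosen after their values were seen, among them SYT6, SV2C, STX1A and STXBP5L. Single values of some genes counted in the totals are not reported here.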

Additional observations from a re-analysis of the deposited data

How the results depend on the processing

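Members called higher and lower numbered 4 and 5 with RLE scaling and limma-voom, 4 and 6 without a count filter, 5 and 7 with DESeq2, 2 and 5 with length offsets, 2 and 3 with the replicate block and 0 and 0 with length offsets plus the block. With single libraries left out they ranged from 0 to 4 higher and from 0 to 4 lower. Calls among all tested genes moved too. The main fit called 971 higher and 935 lower, RLE scaling 979 and 946, and limma-voom 834 and 811. The fit without a filter called 1002 and 950, DESeq2 1396 and 1300, length offsets 468 and 464, and the block 366 and 354. With single libraries left out, 0 to 728 of all tested genes were higher and 0 to 540 lower. Other vesicle cycle genes numbered 2 and 4 with the block, 3 and 3 with length offsets and 0 and 0 with both, and 0 to 5 higher and 0 to 5 lower with libraries left out. Ribbon genes numbered 0 and 3 with the block, 0 and 2 with length offsets and 0 and 0 with both, and 0 to 1 higher and 0 to 4 lower with libraries left out. Beside BSN and SYP, DESeq2 called CPLX2 (log2 fold change -3.37, adjusted p = 0.029), whose counts of 5, 75 and 4 in prepuberty and 6, 1 and 1 in puberty rest on prepuberty replicate 2. The 9 called members kept their direction in every alternative. Same-numbered libraries had correlations of deviations of 0.05, -0.10 and -0.10, and other pairs of -0.03 to 0.12. The labels do not say whether the numbers pair the samples, and these few correlations cannot decide it. With the replicate block and length offsets, 1 gene was higher and 1 lower among all tested genes. The cause of lost calls was not tested. VAMP8 had 48 to 77 counts per prepuberty library.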

Other observations

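CPLX1, CPLX2 and SYN2 peaked in prepuberty replicate 2. CPLX2, set aside by the count filter, had 75 counts there and 1 to 6 in the other libraries. CPLX1 was at 2.55 CPM there and at 0.36 to 1.03 CPM elsewhere, and SYN2 at 9.42 CPM there and at 1.92 to 6.70 CPM elsewhere. Over the 69 tested members, prepuberty replicate 2 was the highest library for 22, more than any other library, with a median log2 deviation from the mean of 0.09. The neuron markers summed to 3006 CPM in it, against 2751 to 3012 CPM in the other libraries, and the part of neurons in these values was not tested.

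Of the 8 members set aside, the 7 other than CPLX2 (SLC17A8, SLC18A3, STX11, STX19, SYNGR4, SYT8 and SYT10) had at most 10 counts in any library.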
